A study of Mus musculus with 8 samples.

Results

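The Hedgehog receptors and GLI factors described here are 9 genes: Ptch1, Hhip, Gas1, Boc, Smo, Sufu, Gli1, Gli2 and Gli3. They were chosen by name, with earlier results of these data known. All 9 had values in the deposited gene table, among 17488 genes with values of 48321 listed, and all 9 passed the filter on low values that left 13959 genes to test. RNA was sequenced from E14 mouse embryonic stem cells (strain 129/Ola) in 8 libraries, 2 in each of 4 groups. Cells of the GSK3β line lack their own Gsk3b and carry a GSK3β transgene with the L132G change. Cells of the GSK3α line lack their own Gsk3a and carry a GSK3α transgene with the L195G change. Changes of this kind make a kinase sensitive to bulky ATP analogs such as 3MB-PP1. All cells were kept for 6 h in serum-free N2B27 medium. In each line 1 group was then exposed to 3MB-PP1 at 5 µM for 2 h and the other group was left untreated. No vehicle and no transgene promoter are given in the labels, and each paralog is represented by 1 line. A difference between the paralogs therefore cannot be told apart from any other difference between the lines. No group carries an unmodified form of the paralog that its line was built on. The labels name no change of the other paralog in either line. Nothing in the labels says that the 2 libraries of a group came from separate cultures, so the p-values below measure only the spread between these libraries.

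In Hedgehog signalling the ligands Shh, Ihh and Dhh bind Ptch1, which otherwise holds the transmembrane protein Smo inactive. Gas1 and Boc are ligand-binding co-receptors, and Hhip is a membrane protein that captures ligand. Active Smo moves into the primary cilium and releases the GLI zinc finger factors from Sufu. Without ligand, PKA primes Gli2 and Gli3 for phosphorylation by casein kinase 1 and GSK3, after which the proteins are truncated to repressors or destroyed. Gli1 acts as an activator and is, with Ptch1 and Hhip, among the transcriptional targets of the pathway in many tissues.

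Ptch1, Gli2 and Hhip were the members that passed the test for a change with 3MB-PP1 within a line, all in the GSK3β line, and the 250 bases before their RefSeq transcription starts (build GRCm38.p6, minus strand, written 5′ to 3′) are shown for that reason. Capitals mark CG dinucleotides. The Ptch1 stretch lies at chr13:63565736-63565985, that of Gli2 at chr1:119053620-119053869 and that of Hhip at chr8:80058009-80058258. The Ptch1 start is that of a transcript shorter than the outermost one in the annotation, so its stretch lies within the annotated gene.
Ptch1: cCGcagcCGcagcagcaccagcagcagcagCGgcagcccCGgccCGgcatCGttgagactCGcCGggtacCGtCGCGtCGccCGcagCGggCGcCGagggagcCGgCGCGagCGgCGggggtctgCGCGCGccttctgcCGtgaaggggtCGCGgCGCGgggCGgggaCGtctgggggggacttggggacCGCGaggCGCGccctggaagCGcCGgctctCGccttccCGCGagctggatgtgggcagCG
Gli2: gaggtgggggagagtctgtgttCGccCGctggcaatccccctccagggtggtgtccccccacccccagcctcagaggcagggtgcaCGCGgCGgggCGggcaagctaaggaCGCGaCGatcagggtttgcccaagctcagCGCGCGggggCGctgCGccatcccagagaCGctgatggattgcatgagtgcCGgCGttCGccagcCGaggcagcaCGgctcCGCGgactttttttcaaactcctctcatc
Hhip: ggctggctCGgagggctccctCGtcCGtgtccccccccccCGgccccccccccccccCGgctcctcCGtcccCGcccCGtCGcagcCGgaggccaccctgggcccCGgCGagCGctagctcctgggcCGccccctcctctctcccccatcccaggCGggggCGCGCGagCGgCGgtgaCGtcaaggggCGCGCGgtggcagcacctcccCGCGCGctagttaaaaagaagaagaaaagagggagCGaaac
The Ptch1 stretch holds 41 CG dinucleotides and 78.4% G and C, the Hhip stretch 28 and 76%, and the Gli2 stretch 22 and 67.2%. Among members not called with 3MB-PP1 in either line, the Gli3 stretch holds 34 and 72.8% and the Smo stretch 15 and 68.4%. That of Gas1 holds 10 and 58.8%, and that of Sufu 8 and 54%. Over 32851 promoters of this length the medians were 6 CG dinucleotides and 52.4% G and C. RefSeq promoters were matched for 7 of the 9 members, all but Gli1 and Boc. For Gas1 the bases after the RefSeq start were not found in its annotated transcripts, so its start is less certain. The GLI motif TGGGTGGTC, searched on both strands, was in 0 of these 7 and in 0.225% of all promoters. With up to 1 mismatch, a search chosen after the exact one, it was in 0 of the 7 and in 5.79% of all. The TCF/LEF motif CTTTGAT was in 0 of the 7 and in 3.21% of all. These windows are short, and the absence of these letters says nothing of binding elsewhere.

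The members are spread over 7 chromosomes (GENCODE M21, build GRCm38). Ptch1 lies at chr13:63508328-63573598 on the minus strand, Hhip at chr8:79965851-80058006 on the minus strand, Gas1, a gene of 1 exon, at chr13:60174405-60177365 on the minus strand, and Boc at chr16:44485049-44558897 on the minus strand. Smo lies at chr6:29735503-29761365 and Sufu at chr19:46396896-46488804, both on the plus strand. Gli1 lies at chr10:127329882-127341974 and Gli2 at chr1:118834132-119053619, both on the minus strand, and Gli3 at chr13:15463235-15730026 on the plus strand. Exons of 4 members share bases with genes on the opposite strand. Gas1 shares 589 with Gm48488, Hhip 175 with Gm27820 and Gli3 188 with Gm6556, and Gli1 shares 265 with Gm47200 and 62 with Arhgap9, the 1 of these partners with values in the table. The strand setting of the counting is not given in the sources used here, so reads from those bases cannot be assigned to either gene. Reads from stretches in which paralogs are identical could likewise be split between genes. The longest such stretches in coding sequence among the GLI factors and between Boc and its paralog Cdon are shown here. Only exact matches between these genes were searched, so the stretches set no bound on the reads that could be split.
Gli2 and Gli3: aagaaggagttcgtgtgccgctggc
Gli1 and Gli2: gagaagccacacaagtgcacgtt
Boc and Cdon: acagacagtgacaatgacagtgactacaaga
These runs are 25, 23 and 31 bases long. Read length is not given in the sources used here.

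The deposited values are estimates of gene counts, brought by the authors to an equal upper quartile in every library, and are called scaled values below. Estimated depth was 31.2 and 32.4 M reads in treated GSK3β libraries, 23.8 and 28.9 in untreated GSK3β libraries, 26.0 and 26.4 in treated GSK3α libraries, and 21.5 and 22.7 in untreated GSK3α libraries. Each targeted kinase was higher in the line that carries its transgene: Gsk3b lay between 235 and 258 in the GSK3β libraries and between 52.7 and 58.2 in the GSK3α libraries, and Gsk3a between 76.2 and 79.9 in the GSK3β libraries and between 141 and 160 in the GSK3α libraries. Endogenous and transgene transcripts cannot be told apart in these values. All 8 pluripotency markers had values, with sums of 6070 to 6300 in every library, as the label embryonic stem cells gives. Of 8 fibroblast markers 3 had values, with sums of at most 14. Sums of the 5 neural markers with values of 7 listed were 219 to 227 in treated and 154 to 167 in untreated GSK3β libraries, against 161 to 162 in treated and 145 to 152 in untreated GSK3α libraries, most of it Tubb3 and Nes. Those of 4 trophoblast markers with values of 6 listed were 9.22 to 9.68, 5.86 to 5.99, 3.97 to 4.56 and 3.83 to 4.23 in the same order of groups, and those of 5 mesendoderm markers of 5 listed 17.7 to 18.4, 14 to 15.1, 16.1 to 17.7 and 18.4 to 18.9. Elf5 and Tpbpa of the trophoblast markers, and Neurog1 and Olig2 of the neural markers, had no values. The sums of the 6 primitive endoderm markers with values of 7 listed were 10.3 to 12.1 in all 8 libraries. The part of these markers in the members' values was not tested. In bulk RNA, fewer cells of a type and less RNA per cell cannot be told apart.

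Per kilobase of the longest coding transcript and averaged over the 8 libraries, Smo stood highest at 8.36, followed by Sufu at 6.90, Ptch1 at 6.83 and Gli2 at 6.81. Gli1 stood at 4.88 and Gli3 at 1.69. The co-receptors and the ligand trap were the lowest, with 0.935 for Gas1, 0.863 for Boc and 0.579 for Hhip. The highest member differed between the groups. Ptch1 led in treated GSK3β libraries at 10.3 and Smo in untreated GSK3β libraries at 9.55. In the GSK3α line Sufu led, at 8.47 in treated and 8.01 in untreated libraries. Gas1 rested on 25 to 135 estimated reads a library, Boc on 66 to 125 and Hhip on 97 to 254, while Ptch1 rested on 651 to 2825. The 3 low members therefore carry the largest counting error, and their SE below are the widest.

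**Figure D1:**
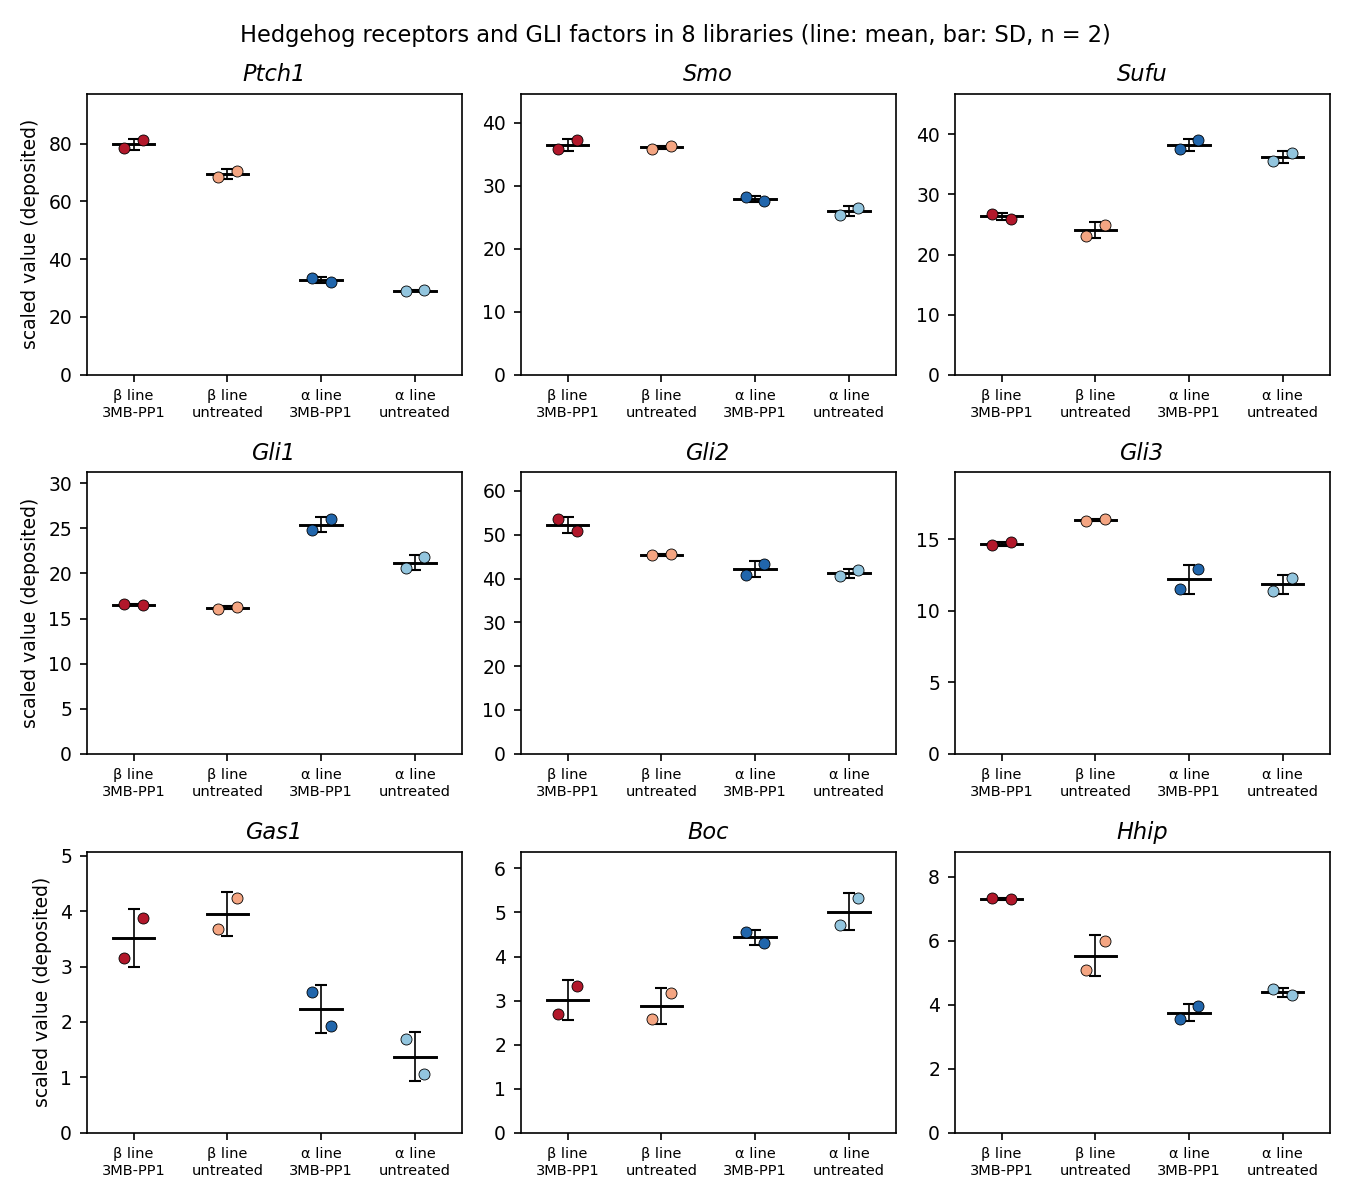
Scaled value (deposited, vertical axis from 0) of each member in every library, with the 3MB-PP1 and untreated groups of the GSK3β line left of those of the GSK3α line; points are libraries, lines are means and bars SD (n = 2). Ptch1 lies between 68.3 and 81.1 in the GSK3β line and between 29.0 and 33.4 in the GSK3α line.

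The first comparison asked how the members differed between the untreated lines, each of which expresses 1 GSK3 paralog from a transgene. Ptch1, the ligand receptor, and Gas1 were more than 2-fold higher in the untreated GSK3β line, and Smo, Gli3, Gli2 and Hhip were higher by smaller amounts. Sufu, the inhibitor that holds GLI proteins, Gli1 and Boc were lower. All 9 members passed the test, 6 higher and 3 lower, where 48.2% of all tested genes passed, 22.3% higher and 25.9% lower. The median difference of the members was 0.27 on the log2 scale, against -0.02 over all tested genes, and their median absolute difference 0.46, against 0.16.

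Among the receptors, Ptch1 had scaled values of 68.3 and 70.6 in untreated GSK3β libraries, against 29.0 and 29.2 in untreated GSK3α libraries. The groups lie far apart, with a log2 difference of 1.23 ± 0.04 (SE; 95% interval 1.14 to 1.32, adjusted p = 1.14e-13), which ranked 80 by size among the 13959 genes. Gas1 had 3.67 and 4.23 in untreated GSK3β libraries, against 1.69 and 1.06 in untreated GSK3α libraries. Its log2 difference was 1.07 ± 0.15 (SE, adjusted p = 7.9e-06) and depended on what was added before the logarithm, with 1.49 for 0.1 and 0.49 for 5 in place of 1. Boc, the other co-receptor, went the opposite way, with 2.58 and 3.17 in untreated GSK3β libraries, against 4.72 and 5.32 in untreated GSK3α libraries (log2 difference -0.64 ± 0.12, adjusted p = 0.000257; -0.35 with 5 added). Hhip had 5.08 and 5.99 in untreated GSK3β libraries, against 4.49 and 4.30 in untreated GSK3α libraries, a log2 difference of 0.27 ± 0.10 (adjusted p = 0.0361; 0.16 with 5 added). The Hhip groups do not overlap but are close.

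Smo, which passes the signal on, had 35.9 and 36.3 in untreated GSK3β libraries, against 25.4 and 26.5 in untreated GSK3α libraries (log2 difference 0.46 ± 0.05, adjusted p = 4.58e-07). Sufu had 23.1 and 25.0 in untreated GSK3β libraries, against 35.5 and 36.9 in untreated GSK3α libraries (-0.57 ± 0.05, adjusted p = 7.29e-08). Both pairs of groups stand clearly apart, in opposite directions. The 3 GLI factors also differed among themselves. Gli1 had 16.1 and 16.3 in untreated GSK3β libraries, against 20.6 and 21.8 in untreated GSK3α libraries (-0.36 ± 0.06, adjusted p = 7.67e-05). Gli3, the main repressor of the family, had 16.3 and 16.4 in untreated GSK3β libraries, against 11.4 and 12.3 in untreated GSK3α libraries (0.44 ± 0.07, adjusted p = 9.17e-05). Gli2, the main activator of the first response, had 45.3 and 45.6 in untreated GSK3β libraries, against 40.5 and 41.9 in untreated GSK3α libraries (0.14 ± 0.05, adjusted p = 0.02). Gli1 was lower in the line in which Ptch1 was higher.

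Calls of 7 members held under every alternative tried, and those of Gli2 and Hhip did not. Gli2 no longer passed without untreated GSK3α library 1 (0.11, adjusted p = 0.117) or untreated GSK3β library 2 (0.13, adjusted p = 0.0637), and Hhip without untreated GSK3α library 1 (0.30, adjusted p = 0.0666) or 2 (0.25, adjusted p = 0.13), untreated GSK3β library 2 (0.17, adjusted p = 0.279) or treated GSK3β library 1 (adjusted p = 0.0512) or 2 (adjusted p = 0.0511). Gli2 also missed the threshold without a trend of the variance on the mean (adjusted p = 0.0597), and Hhip without a filter (adjusted p = 0.0505) or with the untreated groups alone (adjusted p = 0.0649).

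**Figure D2:**
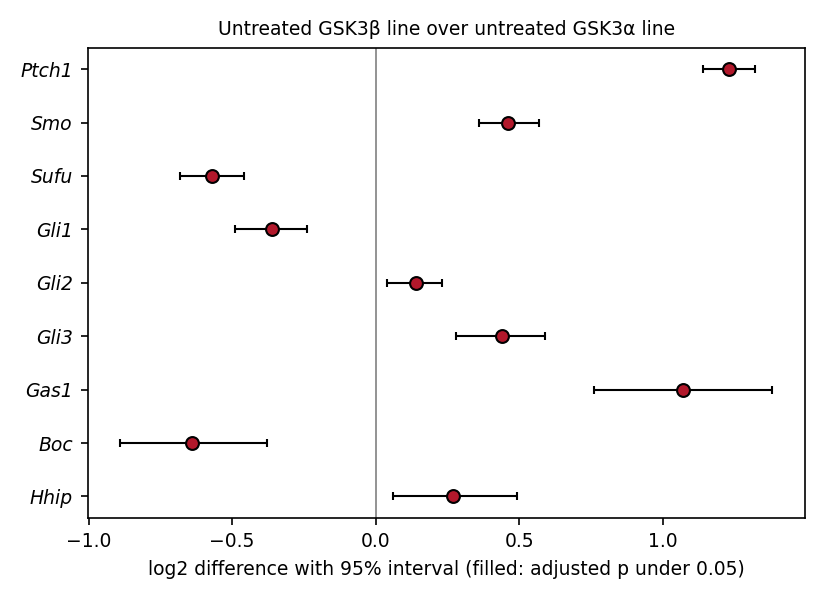
Log2 difference of the untreated GSK3β line over the untreated GSK3α line for each member (points) with its 95% interval from limma (bars); filled points passed an adjusted p of 0.05. Ptch1 at 1.23 and Gas1 at 1.07 lie furthest to the right, and Boc at -0.64 and Sufu at -0.57 furthest to the left.

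The second comparison asked what 3MB-PP1 changed in the GSK3β line. Ptch1, Gli2 and Hhip rose, by 1.15-, 1.14- and 1.27-fold on the fitted scale, and no member was called lower. The change of Ptch1 was small beside its difference between the lines. That made 3 of 9 members called, all higher, where 14.9% of all tested genes were called and 7.49% were called higher. The members' median change was 0.05 on the log2 scale, against -0.01 over all tested genes, and the median absolute change 0.14, against 0.08. For scale, Axin2, a feedback inhibitor of Wnt signalling that β-catenin induces, changed by 1.39 ± 0.07 (SE) in the same comparison. Of the other genes chosen as Wnt controls, Sp5 changed by 1.43 ± 0.16, Tnfrsf19 by 0.97 ± 0.06 and Lef1 by -0.63 ± 0.08. Sp5 is a low gene, with 0.156 and 0.256 in untreated and 2.1 and 2.41 in treated GSK3β libraries. The size of its change therefore depends on the 1 added before the logarithm. In the GSK3α line Axin2 changed by 0.04 ± 0.07 (SE).

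Ptch1 had 78.4 and 81.1 in treated GSK3β libraries, against 68.3 and 70.6 in untreated GSK3β libraries. The groups do not overlap, and the log2 change was 0.20 ± 0.04 (SE; 95% interval 0.11 to 0.29, adjusted p = 0.00409). Gli2 had 53.5 and 50.9 in treated GSK3β libraries, against 45.3 and 45.6 in untreated GSK3β libraries. Its groups do not overlap either (0.20 ± 0.05, 95% interval 0.10 to 0.29, adjusted p = 0.00669). Hhip had 7.33 and 7.30 in treated GSK3β libraries, against 5.08 and 5.99 in untreated GSK3β libraries (0.35 ± 0.10, 95% interval 0.13 to 0.57, adjusted p = 0.0286; 0.23 with 5 added before the logarithm). The Hhip pair is tight in treated cells and wide in untreated ones.

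Each of these 3 calls ended when 1 library was left out. Ptch1 no longer passed without treated GSK3β library 2 (0.17, adjusted p = 0.0643), Gli2 without treated GSK3β library 1 (0.16, adjusted p = 0.132) or without a variance trend (adjusted p = 0.0614), and Hhip without treated GSK3β library 1 (0.35, adjusted p = 0.163) or 2 (0.35, adjusted p = 0.117) or untreated GSK3β library 1 (0.25, adjusted p = 0.261).

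The other 6 members did not pass in the GSK3β line. Sufu had 26.8 and 26.0 in treated GSK3β libraries, against 23.1 and 25.0 in untreated GSK3β libraries (0.13 ± 0.05, 95% interval 0.02 to 0.24, adjusted p = 0.115), and passed without untreated GSK3β library 2 (0.19, adjusted p = 0.0415; 0.0415 to 0.545 over its alternatives). Gli3 had 14.6 and 14.8 in treated GSK3β libraries, against 16.3 and 16.4 in untreated GSK3β libraries (-0.15 ± 0.07, 95% interval -0.30 to 0.01, adjusted p = 0.209). Its groups do not overlap, although the fit, which shares its spread across genes, did not call it. Gli1 had 16.6 and 16.5 in treated GSK3β libraries, against 16.1 and 16.3 in untreated GSK3β libraries (0.02 ± 0.06, 95% interval -0.11 to 0.15, adjusted p = 0.856). That interval leaves room for small changes of Gli1 either way. Smo had 35.8 and 37.2 in treated GSK3β libraries, against 35.9 and 36.3 in untreated GSK3β libraries, and these overlap (0.02 ± 0.05, 95% interval -0.09 to 0.12, adjusted p = 0.861). Gas1 had 3.15 and 3.88 in treated GSK3β libraries, against 3.67 and 4.23 in untreated GSK3β libraries (-0.14 ± 0.15, adjusted p = 0.59). Boc had 2.70 and 3.33 in treated GSK3β libraries, against 2.58 and 3.17 in untreated GSK3β libraries (0.05 ± 0.12, adjusted p = 0.832). The libraries of both co-receptors overlap between the groups.

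The third comparison asked the same of the GSK3α line. No member passed the test there, and Gli1, Ptch1 and Gas1 had the lowest p-values, all with positive changes. The limma test called 0 of 9 members, where 0.881% of all tested genes were called, and 3 members had an unadjusted p under 0.05. The members' median change was 0.08 on the log2 scale, against 0.01 over all tested genes, with 7 changes positive and 2 negative. The median absolute change was 0.14, against 0.06.

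Gli1 had 24.8 and 26.0 in treated GSK3α libraries, against 20.6 and 21.8 in untreated GSK3α libraries. The groups do not overlap (0.25 ± 0.06, SE; 95% interval 0.12 to 0.38, adjusted p = 0.0599). Its adjusted p was 0.0442 with a stricter filter on low values, 0.0441 in a fit of the GSK3α libraries alone, and 0.0436 and 0.044 without untreated GSK3β library 1 or 2, so the call turns on these choices. Over the 17 alternatives its adjusted p ranged between 0.0436 and 0.353. Ptch1 had 33.4 and 32.1 in treated GSK3α libraries, against 29.0 and 29.2 in untreated GSK3α libraries, again without overlap (0.17 ± 0.04, 95% interval 0.07 to 0.26, adjusted p = 0.0867). Gas1 had 2.54 and 1.92 in treated GSK3α libraries, against 1.69 and 1.06 in untreated GSK3α libraries (0.45 ± 0.15, 95% interval 0.14 to 0.75, adjusted p = 0.203). The Gas1 value ranged between 0.26 and 0.64 with single libraries left out, the lowest without untreated GSK3α library 2, and was 0.68 with 0.1 and 0.18 with 5 added before the logarithm.

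Smo had 28.2 and 27.6 in treated GSK3α libraries, against 25.4 and 26.5 in untreated GSK3α libraries (0.10 ± 0.05, adjusted p = 0.438), and Sufu had 37.6 and 39.0, against 35.5 and 36.9 (0.08 ± 0.05, adjusted p = 0.601). Hhip had 3.57 and 3.95 in treated GSK3α libraries, against 4.49 and 4.30 in untreated GSK3α libraries (-0.18 ± 0.10, 95% interval -0.40 to 0.04, adjusted p = 0.521). Its groups do not overlap, with the treated libraries below. Boc had 4.56 and 4.31 in treated GSK3α libraries, against 4.72 and 5.32 in untreated GSK3α libraries (-0.14 ± 0.12, adjusted p = 0.687). Gli2 had 40.9 and 43.4 in treated GSK3α libraries, against 40.5 and 41.9 in untreated ones (0.03 ± 0.05, adjusted p = 0.852), and Gli3 had 11.5 and 12.9, against 11.4 and 12.3 (0.03 ± 0.07, adjusted p = 0.905). Libraries of Gli2 and Gli3 overlap between the groups.

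The fourth comparison tested whether the response to 3MB-PP1 differed between the lines. Hhip did, with a change of 0.35 in the GSK3β line and -0.18 in the GSK3α line, so that the ligand trap was highest in treated GSK3β cells and lowest in treated GSK3α cells. The difference, GSK3β minus GSK3α, was 0.53 ± 0.15 (SE; 95% interval 0.22 to 0.84, adjusted p = 0.0359; 0.33 with 5 added before the logarithm). It was 1 of 9 members called, where 6.53% of all tested genes were called. The call ended without any single library other than untreated GSK3β library 2, with adjusted p of 0.0568 to 0.157 in those 7 fits, and without a filter (0.0533) or a variance trend (0.0799).

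For Gas1 the difference was -0.58 ± 0.21 (95% interval -1.02 to -0.15, adjusted p = 0.102; -0.25 with 5 added), and it passed without untreated GSK3α library 1 (-0.78, adjusted p = 0.0335; 0.0335 to 0.364 over its alternatives). Gli1 gave -0.23 ± 0.09 (95% interval -0.41 to -0.05, adjusted p = 0.127) and Gli2 0.16 ± 0.07 (95% interval 0.03 to 0.30, adjusted p = 0.147). So although Gli2 was called in the GSK3β line and not in the GSK3α line, its responses were not shown to differ. Ptch1 gave 0.03 ± 0.06 (95% interval -0.10 to 0.16, adjusted p = 0.838). The upper end lies below the estimate of its change in the GSK3β line, 0.20, but within the 95% interval of that change, 0.11 to 0.29. Gli3 gave -0.18 ± 0.10, Smo -0.08 ± 0.07, Sufu 0.05 ± 0.08 and Boc 0.20 ± 0.17, with adjusted p of 0.351, 0.544, 0.774 and 0.56.

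**Figure D3:**
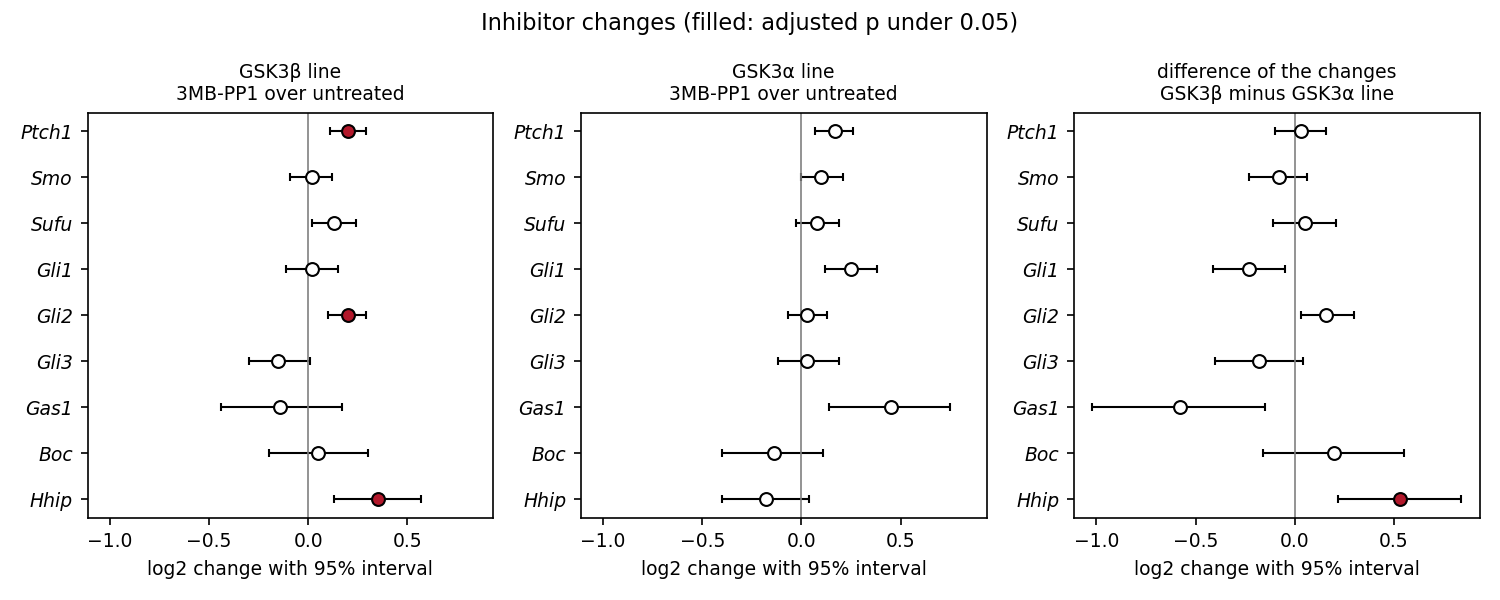
Log2 change with 3MB-PP1 over untreated in the GSK3β line, the same in the GSK3α line, and the difference of the 2 changes (GSK3β minus GSK3α), for each member with its 95% interval from limma; filled points passed an adjusted p of 0.05. Ptch1 lies to the right in both lines at 0.20 and 0.17, and Hhip is the 1 member called in the difference, at 0.53.

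The last comparison averaged the effect of 3MB-PP1 over both lines, with a term for line. Ptch1 was the 1 member of 9 called, where 1.73% of all tested genes were called. Its change was 0.18 ± 0.03 (SE; 95% interval 0.11 to 0.25, adjusted p = 0.0149), and treated libraries lay above the untreated ones in each line. The call ended without untreated GSK3β library 2 (0.19, adjusted p = 0.0594) or treated GSK3β library 2 (0.17, adjusted p = 0.101), and without a variance trend (adjusted p = 0.0836).

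The other genes of the pathway were taken from 6 lists of 78 genes, of which 10 had no values, 6 fell under the filter and 62 were tested. With 3MB-PP1, 6 of the 62 were called higher and 7 lower in the GSK3β line, which is 21%, beside 14.9% of all tested genes. In the GSK3α line 0 were called higher and 4 lower, which is 6.45%, beside 0.881% of all tested genes. Of the 13 values called in the GSK3β line, those of Lrp2, Gpc4, Spop and Zic5 held without any single library. Among the 9 remaining calls, leaving out treated GSK3β library 1 ended 8 and library 2 ended 6, untreated GSK3β library 1 ended 6 and library 2 ended 3, with adjusted p of up to 0.314, and either treated GSK3α library ended that of Mgrn1. In the GSK3α line each of the 4 calls ended without some single library. Leaving out treated GSK3α library 1 or 2 ended 4 calls each, untreated GSK3α library 1 ended 4 and library 2 ended 3, and either treated GSK3β library ended 2, with adjusted p of up to 0.393. Without a variance trend 10 of the 13 calls in the GSK3β line and 4 of the 4 in the GSK3α line were lost. Between the untreated lines 14 of the 62 were higher and 11 lower in the GSK3β line, which is 40.3%, beside 48.2% of all tested genes. The difference of the responses was called for 5 of the 62, which is 8.06%, beside 6.53% of all tested genes. The average was called for 3, which is 4.84%, beside 1.73%, and each of those 3 calls ended without some single library.

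Ligand genes had low values or none. Shh and Ihh had no values, Disp2 and Scube2 fell under the filter, and Dhh averaged 1.11 ± 0.42 in treated and 1.19 ± 0.14 in untreated GSK3β libraries, against 1.24 ± 0.01 in treated and 0.936 ± 0.06 in untreated GSK3α libraries (SD, n = 2 each). None of the 5 ligand and release genes tested passed in either line with 3MB-PP1, and their medians were 0.07 in both, against -0.01 and 0.01 over all tested genes. Of these 5, 2 in the GSK3β line and 0 in the GSK3α line had an unadjusted p under 0.05. Disp1, which frees lipid-bound ligand from the cell, changed by 0.19 ± 0.08 (adjusted p = 0.131) in the GSK3β line and 0.14 ± 0.08 (adjusted p = 0.523) in the GSK3α line. Scube3, a secreted protein of the family that carries ligand, changed by 0.11 ± 0.05 (adjusted p = 0.142) and 0.02 ± 0.05 (adjusted p = 0.923). It was the 1 gene of this list higher in the untreated GSK3β line than in the untreated GSK3α line (0.20 ± 0.05, adjusted p = 0.00242). That is 20% of the list, beside 48.2% of all tested genes.

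Among the 5 other receptors and ligand-binding proteins, 1 rose and 1 fell with 3MB-PP1 in the GSK3β line. That is 40% called, beside 14.9% of all tested genes. Lrp2, an endocytic receptor that takes up Shh, fell to 37.7 ± 0.432 in treated libraries, against 47.5 ± 5.1 in untreated ones (SD, n = 2; log2 change -0.32, adjusted p = 0.000688). Gpc4, a heparan sulfate proteoglycan of the cell surface, rose to 97.1 ± 0.11, against 85.3 ± 2.22 (0.19, adjusted p = 0.00252). In the GSK3α line 0 of the 5 passed and 3 had an unadjusted p under 0.05, and of the most abundant ones Gpc4 changed by -0.13 ± 0.04 (adjusted p = 0.158) and Gpc3 by -0.11 ± 0.05 (adjusted p = 0.423). The list medians were 0.09 in the GSK3β line and -0.05 in the GSK3α line. Between the untreated lines, Gpc3 and Lrp2 were higher in the GSK3β line, by 0.83 and 0.25 (adjusted p = 1.71e-10 and 0.00134), and none was called lower. That is 40% of the list, beside 48.2% of all tested genes. The Lrp2 difference was 0.15 without untreated GSK3β library 1 (adjusted p = 0.0422).

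Of the 25 tested genes of the cilium and of signal transduction, 2 rose with 3MB-PP1 in the GSK3β line. That is 8% called, beside 14.9% of all tested genes. Tctn1 of the ciliary transition zone rose by 0.21 (adjusted p = 0.0294), and Mgrn1, a ubiquitin ligase that lowers Smo at the cell surface, by 0.15 (adjusted p = 0.0348). The calls of Mgrn1 and Tctn1 ended without single libraries, adjusted p of Tctn1 being up to 0.14. In the GSK3α line 0 of the 25 passed and 3 had an unadjusted p under 0.05; the most abundant ones, Adrbk1 and Tulp3, changed by -0.05 ± 0.04 (adjusted p = 0.642) and 0.04 ± 0.04 (adjusted p = 0.716). The list medians were -0.04 in the GSK3β line and 0.07 in the GSK3α line. Between the untreated lines 2 were higher and 5 lower in the GSK3β line, which is 28%, beside 48.2% of all tested genes. Kif7, the ciliary kinesin that restrains GLI proteins, had 16.8 ± 1.15 in untreated GSK3β libraries, against 30.0 ± 1.45 in untreated GSK3α libraries (-0.80, adjusted p = 8.86e-09). Ulk3, a kinase of GLI proteins, Evc2, a ciliary partner of Smo, and Ift27 of intraflagellar transport followed with -0.29, -0.27 and 0.20 (adjusted p = 0.0149, 0.00829 and 0.0349). Those 3 calls each ended without untreated GSK3β library 1 and without at least 1 other untreated library, with adjusted p of up to 0.113, 0.0948 and 0.169.

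The list of GLI kinases and ubiquitin ligases holds the GSK3 genes that the lines were built on, so its counts between the lines are not independent of the design. With 3MB-PP1, 2 of its 17 genes rose and 1 fell in the GSK3β line, which is 17.6%, beside 14.9% of all tested genes. Spop, the adaptor that brings full-length GLI proteins to a Cul3 ligase, fell to 43.9 ± 1.51, against 52.5 ± 1.02 (-0.26, adjusted p = 0.000378). Csnk1e, a casein kinase 1 gene, rose by 0.15 (adjusted p = 0.0207) and Prkar2a, a regulatory subunit of PKA, by 0.13 (adjusted p = 0.0241). In the GSK3α line 11.8% of the list was called, beside 0.881% of all tested genes. There Gsk3a and Cul3 fell by 0.16 and 0.14 (adjusted p = 0.0345 and 0.0383). Neither passed under quantile scaling (adjusted p = 0.0669 and 0.083), and Cul3 did not with the replicate number as a block (adjusted p = 0.0591). The list medians were 0.04 and -0.02 in the GSK3β and GSK3α lines. Between the untreated lines 6 were higher and 5 lower in the GSK3β line, which is 64.7%, beside 48.2% of all tested genes. Gsk3b differed by 2.10 and Gsk3a by -1.02 (adjusted p = 2.91e-17 and 7.13e-14). Csnk1e followed with -0.33 and Btrc, which recognises phosphorylated GLI proteins, with -0.31 (adjusted p = 3.25e-06 and 1.58e-05).

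Of 14 genes known as GLI targets in other tissues, 6 had no values and 3 fell under the filter. Among the 5 tested, none was called higher and 2 were called lower with 3MB-PP1 in the GSK3β line. In the GSK3α line none was called higher and 2 were called lower. That is 40% in each line, beside 14.9% of all tested genes in the GSK3β line and 0.881% in the GSK3α line. The list medians were -0.12 and -0.16 in the GSK3β and GSK3α lines. Ccnd2, a cyclin of the G1 phase, fell in both, to 36.8 ± 0.439, against 42.5 ± 1.58 in the GSK3β line (-0.20, adjusted p = 0.0132), and to 28.2 ± 0.0158, against 33.7 ± 2.36 in the GSK3α line (-0.25, adjusted p = 0.0297). Ccnd1, another such cyclin, fell by 0.12 in the GSK3β line (adjusted p = 0.0148), and Mycn, of the MYC family, fell by 0.16 in the GSK3α line (adjusted p = 0.0304; 0.071 under quantile scaling). Between the untreated lines 60% of the 5 were called, beside 48.2% of all tested genes. Ccnd2 and Ccnd1 were higher in the GSK3β line, by 0.33 and 0.30 (adjusted p = 5.37e-05 and 4.45e-07). Cdk6, a partner of these cyclins, was lower, with -0.27 (adjusted p = 0.00983). The Cdk6 call ended without untreated GSK3β library 2 or untreated GSK3α library 2.

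Zinc finger factors of the ZIC and GLIS families are related to the GLI proteins. Of the 5 tested, 1 rose and 3 fell with 3MB-PP1 in the GSK3β line, which is 80%, beside 14.9% of all tested genes. In the GSK3α line 0 passed, beside 0.881% of all tested genes, and 2 had an unadjusted p under 0.05. The list medians were -0.21 and -0.06 in the GSK3β and GSK3α lines. Zic5 fell to 52.4 ± 2.74 in treated GSK3β libraries, against 63.8 ± 0.742 in untreated ones (SD, n = 2; log2 change -0.28, adjusted p = 0.000117). Zic2 and Glis2 fell in the GSK3β line by 0.23 and 0.21 (adjusted p = 0.00272 and 0.0255), and Glis3 rose by 0.36 (adjusted p = 0.0239). In the GSK3α line the most abundant ones, Zic2 and Zic5, changed by -0.13 ± 0.05 (SE, adjusted p = 0.267) and -0.14 ± 0.04 (SE, adjusted p = 0.133). Between the untreated lines Glis3 was higher in the GSK3β line, by 0.42 (adjusted p = 0.00257), and the other 4 did not pass. That is 20% of the list, beside 48.2% of all tested genes.

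**Figure D4:**
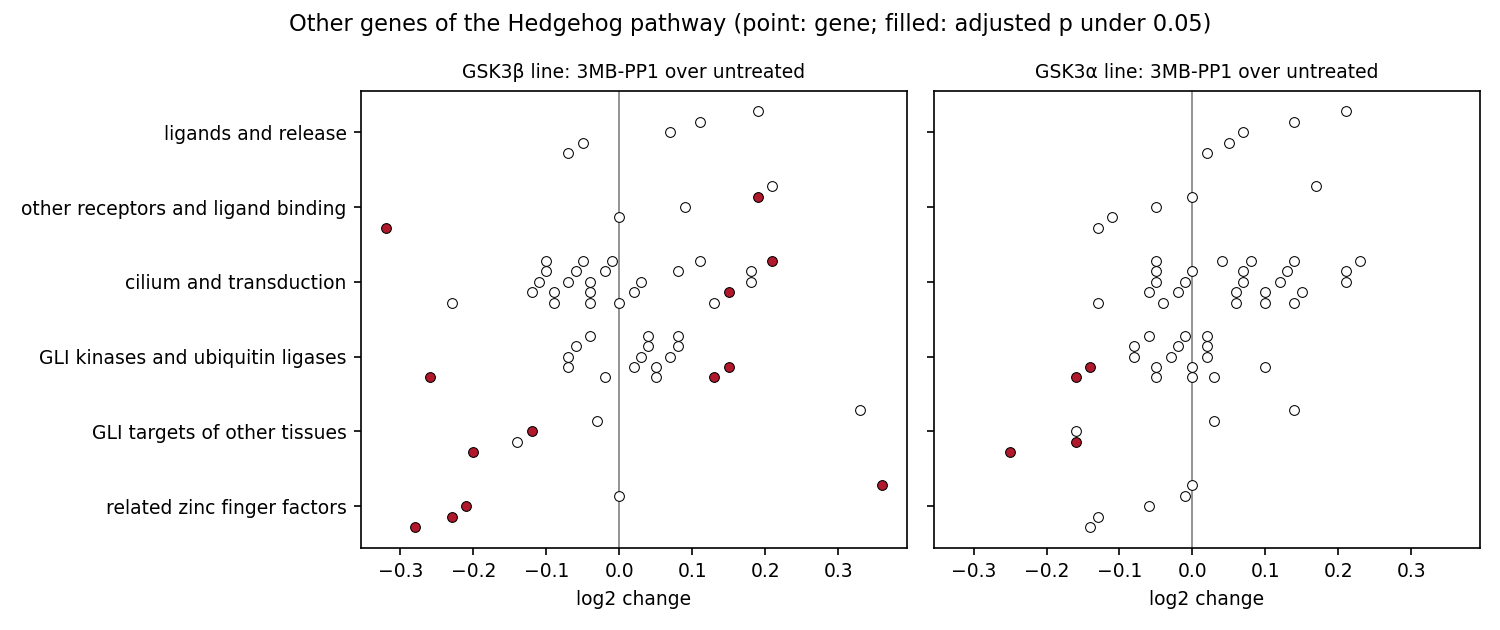
Log2 change with 3MB-PP1 over untreated in the GSK3β line (left) and the GSK3α line (right) for each tested gene of the 6 lists, 1 point a gene; filled points passed an adjusted p of 0.05. Lrp2 at -0.32 lies furthest left in the GSK3β panel and Ccnd2 at -0.25 in the GSK3α panel.

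The genes whose values over the 8 libraries were most like a member's were ranked by Pearson's r on log2(value + 1) among genes with a mean of at least 5. Since the 8 libraries form 4 groups that differ by line at many genes, these values of r describe the order of the groups and carry no test. For Ptch1 they were Vwa5a, Fxyd6 and Ncapd2, with r of 0.9986, 0.9976 and 0.9976. For Hhip they were Bahd1, Clock and Slc35b4 with 0.9948, 0.9903 and 0.9834, for Gas1 Rab2b and Reps1 with 0.993 and 0.9897, and for Boc Drosha, Cwc25 and Fem1a with 0.9891, 0.9852 and 0.9807. For Smo they were Hsd17b4, Chmp1a and Sdcbp with 0.9942, 0.9941 and 0.9938, and for Sufu Zdhhc18, Alpk3 and Cpsf3 with 0.9959, 0.9955 and 0.9948. The 3 GLI genes had different neighbours: Ppp1r26, Mroh1 and Gon4l for Gli1 (0.9887, 0.9874 and 0.9873), Adamts8, Prep and Smg6 for Gli2 (0.9921, 0.9888 and 0.9879), and Wbp4, Nlrp4f and Sox12 for Gli3 (0.9979, 0.991 and 0.9903).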

How the data were processed

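Libraries were made from total RNA with the Illumina TruSeq kit, per the labels' protocols. TopHat2, Partek and build mm10 are named in the submitters' processing notes, with no versions or roles; annotation, strand setting and filters are not given in the sources used here. The deposited signal values are estimates of gene counts, which the authors brought to an upper quartile that is equal between libraries to within 0.0548%. They are not raw counts, so limma-trend was used in place of a count test. In units of the smallest value of a library, 63.5 to 67.6% of those up to 20 reads lay within 0.1 of a whole number, so reads were estimated and not recovered.

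A gene was tested, on log2(value + 1), where its mean over the 8 libraries reached 1. This scale understates the change of low genes. In all 13959 genes were tested, 3529 were under the filter and 30833 of those listed had no values. limma-trend (limma 3.58.1, R 4.3.3) was fitted with 4 group means and 4 residual degrees of freedom; the average over lines used terms for line and inhibitor. Tests were two-sided, with Benjamini-Hochberg adjustment over all tested genes and a threshold of 0.05. Median SE over all genes was 0.0634, 0.0897 for the difference and 0.0510 for the average. The SD of the log2 difference between libraries of a group was 0.118 to 0.143 over genes. The 5 comparisons share groups: both inhibitor comparisons feed the difference and the average, and each untreated group also enters the comparison of the untreated lines.

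The members and the lists were chosen with earlier results of these data known. All members are named; of each list, genes that passed are named, up to 4 by size, or else 2 of highest mean. Genes like a member are the 3 of highest r. A few genes are not reported here and were taken out of the lists, but stayed in the fit. Alternatives changed the pseudocount, filter, scaling, variance trend, libraries fitted, replicate block and each library in turn. Sequences are from GENCODE M21 and RefSeq GRCm38.p6. The fits were tested on simulated data. Every sample column was mapped from its title.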

Additional observations from a re-analysis of the deposited data

Results flagged for a closer look

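The change with 3MB-PP1 differed between the lines, by the test of the difference itself, for 1 of the 9 members and 5 of the 62 other genes of the lists, which is 8.06%, beside 6.53% of all tested genes. For Hhip the difference, GSK3β minus GSK3α, was 0.53 ± 0.15 (SE, adjusted p = 0.0359), and treated libraries lay above untreated ones in the GSK3β line and below them in the GSK3α line. The difference was -0.32 for Lrp2 (adjusted p = 0.0217), 0.31 for Gpc4 (0.00149), 0.20 for Csnk1e (0.0474), 0.19 for Gsk3a (0.0244) and -0.28 for Spop (0.0092). That of Gpc4 passed without any single library. That of Hhip ended without 7 of the 8 single libraries, and those of Lrp2 and Csnk1e without 6. That of Gsk3a ended without 5 and that of Spop without 2. Without a variance trend none of the 6 passed. For Gpc4 the change was 0.19 in the GSK3β line and -0.13 in the GSK3α line, where it did not pass (adjusted p = 0.158).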

How the results depend on the processing

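Over 17 alternatives, 694 of 737 member values kept their direction and side of the threshold, 28 no longer passed, 6 newly passed and 9 changed sign, none of them a called value; 7 of the 14 called values held under every alternative, all between the untreated lines. Without a mean trend in the variance, genes called numbered 3 in the GSK3α line, against 123, 980 in the GSK3β line, against 2084, 133 in the difference, against 911, and 10 in the average, against 241; members called were 0 in the difference and 0 in the average. With a filter at a mean of 5 or the groups compared alone, 1 member was called in the GSK3α line, against 0; with no filter, 0 in the difference, against 1. The cause was not tested. Leaving out 1 library at a time gave 16 to 186 genes and 0 to 1 members in the GSK3α line, 864 to 2277 and 1 to 4 in the GSK3β line, 353 to 1339 and 0 to 1 in the difference, 5669 to 6554 and 7 to 9 between the untreated lines, and 52 to 232 and 0 to 1 in the average. These fits have fewer libraries; an arm left with 1 library was taken to vary like the others. The values that changed sign did so there: Gli2 (-0.011, range to 0.072) and Gli3 (-0.013 and -0.042, to 0.11) in the GSK3α line, Smo (-0.009, to 0.044) and Boc (-0.06 and -0.062, to 0.164) in the GSK3β line, Sufu in the difference (-0.007, to 0.107), and Boc (0.002, from -0.112) and Hhip (-0.01, to 0.16) in the average. Of 50 called values of the other pathway genes, 31 ended under some alternative and 29 without some single library. The filter at 5 gives no value for Gas1 and Boc, and the groups compared alone none for the difference and the average. Median-of-ratios and quantile scaling moved the median of all genes by no more than 0.1; quantile scaling ended 3 of the 4 calls of other pathway genes in the GSK3α line. With 2 libraries a group, small changes of Gas1, Boc and Hhip are not resolved.

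The replicate number as a block gave 102 genes called in the average, against 241, and 106, 1997, 831 and 6648 in the GSK3α line, the GSK3β line, the difference and the untreated lines; members called numbered 1, 0, 3, 1 and 9 in the same order. Deviations of same-numbered libraries correlated at -0.0447 to 0.0271 across genes. Whether libraries of the same number share a culture or a day was not tested.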
